A study of Mus musculus with 19 samples.

Results

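The genes described here encode the microtubule motors kinesin and dynein, the dynein activator dynactin, and the tubulins from which microtubules are built. They were taken as every probe set whose single gene symbol starts with Kif and a digit, Klc and a digit, Dync, Dynl, Dctn and a digit, Tuba, Tubb or Tubg. That rule gave 179 probe sets of 79 genes among 45037 probe sets, and used no measured value. A probe set was tested when its log2 intensity averaged at least 4 over all arrays, which left 105 of the 179 probe sets, covering 56 genes, among 20473 tested in all. The study profiled total RNA from the brains of male mice on 19 Affymetrix arrays, 1 per brain sample. There were 5 SCA3 transgenic samples after CCI-779, 5 SCA3 transgenic samples after placebo, 5 wild-type (wt) samples after CCI-779 and 4 wt samples after placebo. SCA3 is spinocerebellar ataxia type 3, a disease of an expanded glutamine repeat in ataxin-3, and CCI-779 (temsirolimus) is an inhibitor of the kinase mTOR. Treated mice received intraperitoneal CCI-779 (20 mg/kg) 3 times weekly over 6 weeks starting at 5 weeks of age, and the others received placebo injections as often. The promoter, the form of ataxin-3 and the founder line of the transgene, and the strain of either genotype, were not given in the sources used here. The labels do not say whether the samples of a group came from separate mice. The spread behind each p-value is that between samples, and some of it may be technical.

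Microtubules are polymers of alpha- and beta-tubulin, and complexes of gamma-tubulin seed new ones. Most kinesins carry vesicles, organelles and RNA towards the growing ends of microtubules, which in axons means away from the cell body. Cytoplasmic dynein, with dynactin as its partner, carries endosomes, autophagosomes and growth factor signals back. Neurons rely on both directions because of the length of their axons, and clearance of protein aggregates by autophagy needs dynein to bring vesicles to lysosomes near the nucleus. Several of these genes cause inherited disease of neurons or of brain development when mutated, among them KIF5A, KIF1A, DYNC1H1, DCTN1, TUBA1A and TUBB4A in humans. Each drug comparison asked how treated brains differed from placebo brains of the same genotype, and the genotype comparisons asked how SCA3 brains differed from wt brains.

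The mean intensity per array lay between 443 and 469, and no pair of arrays held identical values. The marker genes of neurons, oligodendrocytes and astrocytes were measured in every group, whereas none of the 5 dividing-cell markers on the array and none of 6 markers of ependyma and motile cilia reached the level for testing. 3 arrays stood apart. The wt CCI-779 sample whose label carries no number, called replicate 1 here, had a score of -66.3 on the first principal component and a 3' minus 5' difference of the GAPDH control probe sets of 0.28 (log2), against -0.58 to -0.28 on the other arrays. SCA3 CCI-779 replicates 2 and 5 had scores of -42.4 and -39.2 on the second component. Member calls that these arrays decide are given below with and without them. The GAPDH difference also separated treated from placebo arrays in both genotypes. It was -0.43 to -0.28 on SCA3 CCI-779 arrays against -0.53 to -0.47 on SCA3 placebo arrays. On wt CCI-779 arrays it was -0.44 to 0.28 against -0.58 to -0.50 on wt placebo arrays. This difference and the drug can thus not be told apart. With it as a covariate, 10 of the 14 member calls in SCA3 and 5 of the 15 in wt held by limma. The drug also coincided with a technical measure in both genotypes: the hybridisation spike-ins averaged 10.13 to 10.34 (log2 intensity) on SCA3 CCI-779 arrays against 10.86 to 11.26 on SCA3 placebo arrays, and 9.62 to 10.31 on wt CCI-779 arrays against 10.50 to 11.19 on wt placebo arrays. The ranges did not overlap, so whatever this measure reflects and the drug cannot be told apart. With it as a covariate, none of the member probe sets passed in either drug comparison by limma (15 in SCA3 and 9 in wt had an unadjusted p under 0.05); the median size of the differences called without it changed little, to 0.34 instead of 0.30 in SCA3 and to 0.29 instead of 0.27 in wt, while their median SE rose to 0.12 and 0.14, instead of 0.07 in both.

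Under CCI-779 a minority of the motor and tubulin probe sets changed, by amounts mostly well under 2-fold in both genotypes. In SCA3 brains 9 member probe sets rose and 5 fell against placebo, 14 of 105 or 13.3%, where 15.2% of all 20473 tested probe sets passed (10.2% higher and 4.95% lower). In wt brains 10 rose and 5 fell, 15 of 105 or 14.3%, where 11.9% of all passed (9.78% higher and 2.11% lower). Both shares lay near those of all probe sets. At an unadjusted p under 0.05 the counts were 41 members in SCA3 and 32 in wt, against 30.4% and 28.9% of all. The median log2 difference of the members was 0.02 in SCA3 and 0.00 in wt, against 0.01 and 0.05 over all tested probe sets. In SCA3 the 5 arrays of each group did not overlap for 6 higher and 8 lower members, where 8.51% and 4.67% of all probe sets were separated in this way; in wt this held for 14 higher and 6 lower members, against 12.1% and 2.96% of all.

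The direction of these counts depended on the scaling between arrays. When each array was centred on its own median, the median of all tested probe sets shifted by -0.06 in SCA3 and by -0.10 in wt, and the calls became 7 higher and 11 lower in SCA3 and 3 higher and 14 lower in wt. All probe sets turned too: 17.3% passed in SCA3 and 10.4% in wt, of which 44.7% and 45.2% were higher, instead of 67.4% and 82.2%. With a further quantile normalisation the members' calls were 9 higher and 7 lower in SCA3 and 5 higher and 7 lower in wt, where 16.8% and 9.47% of all passed, 53.0% and 61.3% of them higher. Single differences of about 0.1 are therefore within what the scaling can move.

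**Figure D1:**
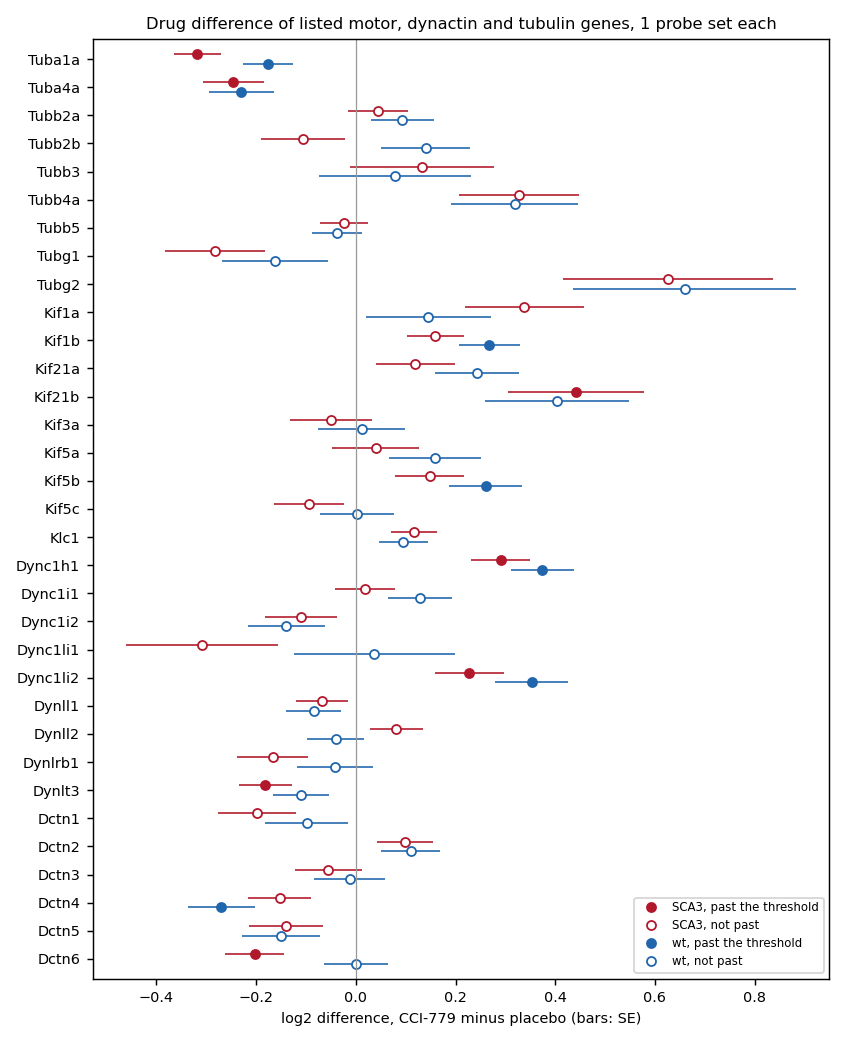
Log2 difference of CCI-779 minus placebo with its standard error for 33 listed motor, dynactin and tubulin genes, each by the brightest of its tested probe sets, in SCA3 (red, upper) and wt (blue, lower); filled points passed the threshold (limma adjusted p under 0.05). Tuba1a and Tuba4a lay below 0 in both genotypes and Dync1h1 and Dync1li2 above 0 in both, while the beta-tubulins were all unfilled.

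Tuba1a and Tuba4a, 2 of the 3 tested alpha-tubulin genes, fell after CCI-779 in both genotypes. Of the 5 tested alpha-tubulin probe sets 3 fell in SCA3 and 2 in wt, where 4.95% and 2.11% of all probe sets fell, none rose, and the differences of all 5 were negative in both genotypes under each of the 3 scalings. Tuba1a, the main alpha-tubulin of young neurons, had log2 intensities of 14.40, 14.36, 14.46, 14.45 and 14.31 in SCA3 CCI-779 brains, against 14.71, 14.68, 14.73, 14.79 and 14.66 in SCA3 placebo brains. In wt it had 14.58, 14.51, 14.53, 14.55 and 14.57 in wt CCI-779 brains, against 14.62, 14.76, 14.72 and 14.79 in wt placebo brains. Every treated array lay below every placebo array of its own genotype. Tuba1a fell 1.25-fold in SCA3, with a log2 difference of -0.32 (SE 0.05, limma adjusted p = 0.000597), and 1.13-fold in wt, with -0.18 (SE 0.05, limma adjusted p = 0.0308). With SCA3 CCI-779 replicates 2 and 5 left out, the SCA3 difference was -0.28 (limma adjusted p = 0.00781). The wt call was lost without any one of wt CCI-779 replicates 2, 3 and 4 or wt placebo replicates 2, 3 and 4, with adjusted p-values up to 0.0965. A probe set assigned to both Gm5620 and Tuba1b, and so not a member, differed by -0.17 in both genotypes without passing (limma adjusted p = 0.0512 for SCA3 brains, 0.0641 for wt brains).

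Tuba4a, an alpha-tubulin of the adult brain whose human counterpart is mutated in some families with amyotrophic lateral sclerosis, was measured by a pair of probe sets. With the first, 1417373_a_at, it had 13.17, 13.13, 13.11, 13.32 and 13.19 in SCA3 CCI-779 brains, against 13.33, 13.33, 13.52, 13.53 and 13.44 in SCA3 placebo brains. In wt the same probe set had 13.18, 13.12, 13.19, 13.12 and 13.22 in wt CCI-779 brains, against 13.35, 13.38, 13.30 and 13.57 in wt placebo brains. Groups did not overlap in either genotype, although SCA3 CCI-779 replicate 4, the highest treated array at 13.32, lay just below the lowest SCA3 placebo array at 13.33. Tuba4a fell 1.19-fold in SCA3 (-0.25, SE 0.06, adjusted p = 0.013) and 1.17-fold in wt (-0.23, SE 0.07, adjusted p = 0.0302) by limma. The SCA3 call was lost without replicates 2 and 5 (-0.23, adjusted p = 0.0747), and the wt call without any one of wt CCI-779 replicates 2, 3 and 4 or wt placebo replicates 2 and 4, with adjusted p-values up to 0.107. The second probe set, 1417374_at, fell in SCA3 (-0.17, SE 0.05, adjusted p = 0.036) and differed by -0.15 in wt without passing (adjusted p = 0.0816). That call was also lost without replicates 2 and 5 (adjusted p = 0.12) and without any one of 7 arrays. Tuba8, at a mean log2 intensity of 5.65 and 5.30 on its 2 probe sets, did not pass in either genotype. In whole-brain RNA, fewer cells of a type and less RNA per cell cannot be told apart.

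The promoters of both alpha-tubulin genes that fell, and of the dynein heavy chain gene that rose, are shown because these genes changed in both genotypes. Each is 300 bases around an annotated transcription start, read 5' to 3' on the gene's strand from the RefSeq promoter table of GRCm38.p6. Capitals mark matches, on either strand, to TATAA (the core of the TATA box), CCAAT or GGGCGG (the GC box).
Tuba1a (chr15:98953452-98953751, minus strand): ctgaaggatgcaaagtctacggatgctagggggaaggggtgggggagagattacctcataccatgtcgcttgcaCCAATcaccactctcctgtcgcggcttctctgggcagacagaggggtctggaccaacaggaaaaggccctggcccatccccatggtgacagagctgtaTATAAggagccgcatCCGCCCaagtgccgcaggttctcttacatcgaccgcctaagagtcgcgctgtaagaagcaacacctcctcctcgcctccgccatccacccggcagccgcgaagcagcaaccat
Tuba4a (chr1:75219245-75219544, minus strand): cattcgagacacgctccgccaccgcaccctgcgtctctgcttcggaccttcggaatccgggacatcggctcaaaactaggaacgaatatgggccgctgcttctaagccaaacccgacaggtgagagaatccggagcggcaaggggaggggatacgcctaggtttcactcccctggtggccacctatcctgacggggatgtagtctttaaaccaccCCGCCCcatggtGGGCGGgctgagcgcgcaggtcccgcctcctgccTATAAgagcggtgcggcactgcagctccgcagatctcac
Dync1h1 (chr12:110601145-110601444, plus strand): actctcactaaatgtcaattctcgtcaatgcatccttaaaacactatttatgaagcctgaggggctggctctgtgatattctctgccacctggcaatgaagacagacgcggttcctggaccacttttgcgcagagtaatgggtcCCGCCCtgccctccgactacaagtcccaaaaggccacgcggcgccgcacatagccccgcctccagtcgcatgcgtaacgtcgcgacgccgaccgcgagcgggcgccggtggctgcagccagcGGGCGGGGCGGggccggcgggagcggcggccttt
Tuba1a held 1 match to each of the 3 motifs. In Tuba4a there were 1 TATAA and 2 GC box matches, and in Dync1h1 there were 3 GC box matches, of which a pair share a base, and no TATAA or CCAAT. Over the 49 promoters of the 43 tested member genes with an entry, 69.4% held a GC box, 16.3% TATAA and 32.7% CCAAT, against 35.7%, 24.9% and 37.4% of 32851 promoters in the table. CACGTG (the E-box) was in 8.16% of member promoters against 7.15% of all, TGACGTCA (the cAMP response element) in 10.2% against 1.79%, and the NRF1 motif in 14.3% against 4.60%. The member genes had passed the level for testing in brain, while the promoters of the table were not filtered by expression, so these shares are of unlike sets. These are matches of letters, given as a description.

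**Figure D2:**
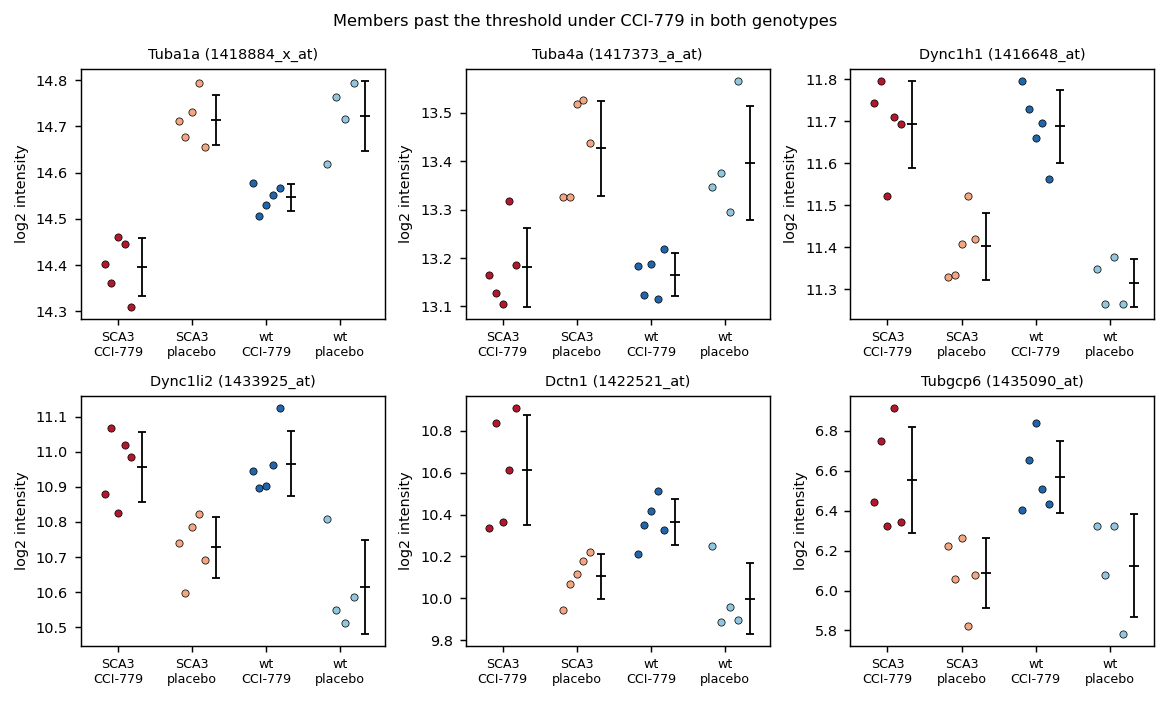
Log2 intensity on each array (points) with the group mean and SD (bars) for the 6 member probe sets that passed the threshold under CCI-779 in both genotypes; groups are SCA3 CCI-779, SCA3 placebo, wt CCI-779 and wt placebo from left to right. Tuba1a and Tuba4a were lower and Dync1h1, Dync1li2, Dctn1 and Tubgcp6 higher in treated brains of both genotypes; axes do not start at 0.

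With all arrays none of the 9 beta-tubulin probe sets passed in either genotype by limma, although 3 in each had an unadjusted p under 0.05. Tubb4a, a beta-tubulin abundant in oligodendrocytes, had 12.05, 12.67, 12.16, 12.18 and 12.66 in SCA3 CCI-779 brains, against 11.92, 11.95, 12.04, 12.02 and 12.14 in SCA3 placebo brains. Its wt values were 11.88, 12.15, 12.24, 12.17 and 12.09 in wt CCI-779 brains, against 11.96, 11.56, 11.69 and 11.94 in wt placebo brains. SCA3 CCI-779 replicates 2 and 5 were the 2 highest arrays, and treated and placebo arrays overlapped in both genotypes. Its difference was 0.33 (SE 0.12, adjusted p = 0.0731) in SCA3 and 0.32 (SE 0.13, adjusted p = 0.108) in wt. Without SCA3 CCI-779 replicates 2 and 5 it was 0.11 in SCA3 (adjusted p = 0.532), and Tubb4a passed in wt (0.32, adjusted p = 0.0289), as it did without all 3 arrays apart (0.38, adjusted p = 0.0123). Tubb4b, found in most tissues, differed by 0.23 (SE 0.08, adjusted p = 0.0688) and 0.20 (SE 0.09, adjusted p = 0.124). Tubb3, the neuron-specific beta-tubulin, differed by 0.13 and 0.08, Tubb5 by -0.02 and -0.04, Tubb2a by 0.04 and 0.09, and Tubb2b by -0.11 and 0.14, with adjusted p-values from 0.318 to 0.781. These Tubb2a and Tubb5 values are those of the brightest probe set. A second Tubb2a probe set, 1427838_at, differed by -0.24 in SCA3 and -0.57 in wt. A second Tubb5 probe set, 1455719_at, differed by 0.03 and -0.17, and the Tubb2a pseudogene Tubb2a-ps2 by -0.20 and -0.16. None of these passed. The difference between alpha- and beta-tubulins was not itself tested.

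Oligodendrocyte markers fell in SCA3 beside these genes. Of 7 tested, 0 rose and 4 fell in SCA3 (Cnp, Ugt8a, Mal and Mobp), and 0 passed in wt, where Ugt8a differed by -0.40 (unadjusted p = 0.0087 and adjusted p = 0.0621). Their summed intensity was 67873 to 74254 in SCA3 CCI-779 brains against 77794 to 101973 in SCA3 placebo brains, and 63661 to 78161 in wt CCI-779 brains against 75708 to 91282 in wt placebo brains. Of 5 microglial markers, 3 fell in each genotype, with summed intensities of 2633 to 3430 in SCA3 CCI-779 brains against 3711 to 4174 in SCA3 placebo brains, and of 2604 to 3136 in wt CCI-779 brains against 3742 to 4236 in wt placebo brains. Tmem119, a defining marker of microglia, was on the array but below the level for testing. Of 8 neuronal markers 1 rose (Eno2) and 1 fell (Rbfox3) in each genotype, and their sums overlapped between treated and placebo brains of both genotypes. Of 6 astrocyte markers Slc1a2 rose in SCA3, Slc1a2 and Aldh1l1 rose in wt, and none fell. Their summed intensity was 33839 to 35915 in SCA3 CCI-779 brains against 29820 to 33224 in SCA3 placebo brains, and 33243 to 36214 in wt CCI-779 brains against 30917 to 34088 in wt placebo brains. The part of these shifts in the tubulin and motor differences was not tested.

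Of the 2 probe sets of gamma-tubulin none passed with all arrays as deposited. Of the 7 probe sets of its complex 1 rose in SCA3 (14.3%) and 2 rose in wt (28.6%), where 15.2% and 11.9% of all passed. After quantile normalisation and after centring, 1 probe set of gamma-tubulin and 1 of its complex also fell in SCA3. Tubgcp6, the largest subunit of the gamma-tubulin ring complex, had 6.44, 6.75, 6.32, 6.92 and 6.34 in SCA3 CCI-779 brains, against 6.22, 6.06, 6.26, 5.82 and 6.08 in SCA3 placebo brains. The wt values were 6.40, 6.66, 6.84, 6.51 and 6.44 in wt CCI-779 brains, against 6.32, 6.08, 6.32 and 5.78 in wt placebo brains. Treated arrays lay above placebo arrays in both genotypes with no overlap, by a narrow margin in each. Tubgcp6 rose 1.38-fold in SCA3 (0.47, SE 0.13, adjusted p = 0.0261) and 1.36-fold in wt (0.44, SE 0.14, adjusted p = 0.0496). The call was lost without any one of 4 arrays in SCA3 (treated or placebo replicates 2 and 4) and of 12 arrays in wt, with adjusted p-values up to 0.0741 and 0.166. Without SCA3 CCI-779 replicates 2 and 5 it was lost in SCA3 (0.47, adjusted p = 0.0845), and without wt CCI-779 replicate 1 in wt (0.48, adjusted p = 0.0535). Tubgcp3, another subunit of the ring complex, rose 1.47-fold in wt (0.55, SE 0.12, adjusted p = 0.00811) and differed by 0.32 in SCA3 (adjusted p = 0.0629). Tubg2, the gamma-tubulin enriched in brain, differed by 0.63 (SE 0.21, adjusted p = 0.053) in SCA3 and 0.66 (SE 0.22, adjusted p = 0.0622) in wt, and Tubg1, the widely expressed one, by -0.28 (SE 0.10, adjusted p = 0.0657) and -0.16 (SE 0.11, adjusted p = 0.327). Without wt CCI-779 replicate 1, Tubg2 passed in SCA3 (adjusted p = 0.0411). With SCA3 CCI-779 replicates 2 and 5 left out its SCA3 difference was 0.32 (adjusted p = 0.387) and it passed in wt (0.66, adjusted p = 0.0322). Tubgcp2 differed by 0.19 in wt (limma adjusted p = 0.124), and rose without wt CCI-779 replicate 1 (0.26, adjusted p = 0.0197). Tubgcp4 on 1433659_at differed by -0.38 in SCA3 (adjusted p = 0.0532). It fell there without wt CCI-779 replicate 1 (adjusted p = 0.0371), and was -0.19 without SCA3 CCI-779 replicates 2 and 5 (adjusted p = 0.37).

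The heavy chain of cytoplasmic dynein rose in both genotypes, 1 of 2 dynein calls in each. These 2 calls were 22.2% of the 9 dynein probe sets, where 15.2% of all passed in SCA3 and 11.9% in wt. The median over all 9 dynein probe sets was 0.02 in SCA3 and 0.04 in wt and turned to -0.04 and -0.07 after centring. Dync1h1, which holds the motor domain, had log2 intensities of 11.74, 11.80, 11.52, 11.71 and 11.69 in SCA3 CCI-779 brains, against 11.33, 11.33, 11.41, 11.52 and 11.42 in SCA3 placebo brains. In wt it had 11.80, 11.73, 11.66, 11.70 and 11.56 in wt CCI-779 brains, against 11.35, 11.27, 11.38 and 11.27 in wt placebo brains. The groups were separated in wt, while in SCA3 a single treated array, replicate 3, met the highest placebo array. Dync1h1 rose 1.22-fold in SCA3 (0.29, SE 0.06, adjusted p = 0.00435) and 1.30-fold in wt (0.37, SE 0.06, adjusted p = 0.00231), and both calls held without any single array and without the 3 arrays that stood apart. A second Dync1h1 probe set at a mean of 4.81, near the level for testing, differed by 0.16 and 0.00 and did not pass.

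Dync1li2, a light intermediate chain that links dynein to cargo adaptors, also rose. It had 10.88, 11.07, 10.83, 11.02 and 10.98 in SCA3 CCI-779 brains, against 10.74, 10.60, 10.78, 10.82 and 10.69 in SCA3 placebo brains. Among wt brains it had 10.94, 10.90, 10.90, 10.96 and 11.13 in wt CCI-779 brains, against 10.81, 10.55, 10.51 and 10.59 in wt placebo brains. No treated array overlapped a placebo array in either genotype. Dync1li2 rose 1.17-fold in SCA3 (0.23, SE 0.07, adjusted p = 0.0335) and 1.28-fold in wt (0.35, SE 0.07, adjusted p = 0.0063), with the SCA3 call lost without both SCA3 CCI-779 replicates 2 and 5 (0.18, adjusted p = 0.189) and without any one of SCA3 CCI-779 replicates 2, 4 and 5 or SCA3 placebo replicates 1, 2 and 5 (adjusted p up to 0.0898). Its second probe set, 1433926_at, differed in the other direction, by -0.15 and -0.35, without passing (adjusted p = 0.581 and 0.188). The other light intermediate chain, Dync1li1, differed by -0.31 (SE 0.15, adjusted p = 0.18) in SCA3 and 0.04 (SE 0.16, adjusted p = 0.902) in wt. It fell in SCA3 without replicates 2 and 5 (-0.58, adjusted p = 0.0146) and without all 3 arrays apart (-0.58, adjusted p = 0.00344). The intermediate chains Dync1i1 and Dync1i2, which bind dynactin, differed by 0.02 and -0.11 in SCA3 and by 0.13 and -0.14 in wt. Dync1i2 fell in wt without all 3 arrays apart (-0.16, limma adjusted p = 0.0253), but with all arrays neither chain passed. Nor did the chains of the dynein of cilia pass: Dync2h1 differed by 0.38 in SCA3 and 0.15 in wt, and Dync2li1 by 0.02 and 0.01.

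The small light chains of dynein had 12 probe sets. In each genotype 1 fell and none rose (8.33%, against 15.2% of all in SCA3 and 11.9% in wt). By sign 9 were negative in SCA3 and 11 in wt, against 9932 and 7976 of all 20473 probe sets, but 8 of the 12 belong to Dynll1 and Dynlt3, and by gene 3 of 5 were negative in SCA3 and 4 of 5 in wt. Dynlt3, a Tctex-type light chain, fell 1.13-fold in SCA3 on probe set 1459854_s_at (-0.18, SE 0.05, adjusted p = 0.0286), where every treated array lay below every placebo array, and differed by -0.11 in wt (adjusted p = 0.2). The SCA3 call was lost without replicates 2 and 5 (-0.17, adjusted p = 0.0947) and without any one of 4 arrays. The other 3 Dynlt3 probe sets ranged from -0.13 to 0.09 in SCA3, none past the threshold. Dynll2, one of a pair of genes for the LC8-type light chain, fell on probe set 1418371_at in wt (-0.83, SE 0.24, adjusted p = 0.0344), but its other probe set differed by 0.08 in SCA3 and -0.04 in wt. The Dynll2 call rested in part on wt CCI-779 replicate 1, at 8.83 against 9.64 to 10.52 on the other arrays of its group: without it the difference was -0.60 (adjusted p = 0.0602). Dynll1, the other LC8 gene, differed over its 4 probe sets by -0.07 to -0.48 in SCA3 and by -0.08 to -0.32 in wt. None of these passed with all arrays. Without wt CCI-779 replicate 1, Dynll1 fell in wt on 1456125_a_at (-0.18, limma adjusted p = 0.0247). It also fell there without all 3 arrays apart (adjusted p = 0.0169). Dynlrb1, a roadblock-type light chain, differed by -0.17 in SCA3 and -0.04 in wt.

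Dynactin gave calls in both directions, and its subunits did not move together. Of its 11 probe sets 1 rose and 1 fell in each genotype (18.2%), where 15.2% of all passed in SCA3 and 11.9% in wt. Dctn1, the subunit that binds microtubules and dynein, had on probe set 1422521_at 10.33, 10.84, 10.37, 10.61 and 10.91 in SCA3 CCI-779 brains, against 9.95, 10.07, 10.12, 10.18 and 10.22 in SCA3 placebo brains. On wt arrays the values were 10.21, 10.35, 10.42, 10.51 and 10.33 in wt CCI-779 brains, against 10.25, 9.89, 9.96 and 9.90 in wt placebo brains. In SCA3 the groups were apart, with treated replicates 2 and 5 the highest, and in wt only placebo replicate 1 overlapped the treated arrays. This probe set rose 1.42-fold in SCA3 (0.51, SE 0.11, adjusted p = 0.00532) and 1.29-fold in wt (0.37, SE 0.11, adjusted p = 0.0457), but without replicates 2 and 5 the difference in SCA3 was 0.33, with an adjusted p of 0.0549. The wt call was lost without any one of 12 arrays, with adjusted p-values up to 0.126. It was also lost after quantile normalisation and after centring. The other Dctn1 probe set, 1435414_s_at, gave -0.20 (SE 0.08, adjusted p = 0.0949) for SCA3 and -0.10 (SE 0.08, adjusted p = 0.449) for wt. Dctn4, Dctn5 and Dctn6 belong to the pointed-end complex, which caps the short filament at dynactin's core. Dctn6 fell 1.15-fold in SCA3 (-0.20, SE 0.06, adjusted p = 0.0304) and had a log2 difference of 0.00 in wt. That call was lost without replicates 2 and 5 (adjusted p = 0.0791) and without any one of 3 arrays, and the other Dctn6 probe set differed by -0.04. Dctn4 fell 1.21-fold in wt on 1 of 3 probe sets, 1420861_at (-0.27, SE 0.07, adjusted p = 0.0162). That probe set differed by -0.15 in SCA3 (adjusted p = 0.113). The other 2, 1420862_at and 1458541_at, differed by -0.14 and -0.05 in wt and by 0.12 and -0.07 in SCA3, without passing. Dctn5 differed by -0.14 and -0.15, Dctn2, whose overexpression takes dynactin apart, by 0.10 and 0.11, and Dctn3 by -0.05 and -0.01, in SCA3 and wt, none past the threshold.

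Among 45 kinesin probe sets, 5 rose and none fell in SCA3 (11.1%), and 5 rose and 1 fell in wt (13.3%). These shares lay near those of all tested probe sets, 15.2% in SCA3 and 11.9% in wt. The median kinesin difference was 0.09 in SCA3 and 0.03 in wt, where it turned to -0.01 after quantile normalisation and -0.07 after centring. In SCA3 5 rose after quantile normalisation and 4 after centring, and none fell. In wt 2 rose and 1 fell after quantile normalisation, and 0 rose and 2 fell after centring. The wt rises of Kif5b, Kif1b and Kif2a given below were thus all lost under centring. The 3 conventional kinesin heavy chains, which carry mitochondria and vesicles down axons, gave calls that differed between their own probe sets. Kif5b, the form found in most cells, rose in SCA3 on 1418430_at (0.32, SE 0.06, adjusted p = 0.00326) and in wt on 1418429_at (0.26, SE 0.07, adjusted p = 0.0304) and 1418428_at (0.27, SE 0.09, adjusted p = 0.0492). Without wt CCI-779 replicate 1 the last of these was lost (0.25, adjusted p = 0.0939). The 6 Kif5b probe sets ranged from -0.14 to 0.34 in SCA3 and from -0.03 to 0.27 in wt. Kif5a, the neuronal form, had a mean of 13.85 on 1434670_at and differed there by 0.04 in SCA3 and 0.16 in wt, neither past the threshold.

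Kif5c, the other neuronal form, gave the member difference with the smallest interaction p-value. On probe set 1422945_a_at it had 11.46, 11.92, 11.72, 11.65 and 11.69 in SCA3 CCI-779 brains, against 11.33, 11.08, 11.10, 10.90 and 11.02 in SCA3 placebo brains. In wt it had 11.47, 11.26, 11.54, 11.37 and 11.67 in wt CCI-779 brains, against 11.45, 11.72, 11.29 and 11.64 in wt placebo brains. SCA3 placebo was the low group, with all 5 arrays below all SCA3 CCI-779 arrays and all but the highest of them below the lowest array of either wt group. Kif5c rose 1.52-fold in SCA3 by this probe set (0.60, SE 0.10, adjusted p = 0.00144) and differed by -0.07 in wt (adjusted p = 0.721). The SCA3 call held without replicates 2 and 5 (0.52, adjusted p = 0.0184). The genotype by drug interaction was 0.67 (SE 0.15) and did not pass, with an unadjusted p of 0.000331 and an adjusted p of 0.419; SCA3 against wt under placebo was -0.44 (adjusted p = 0.474). The probe set of Kif5c with the highest mean, 1455266_at, differed by -0.09 in SCA3 and 0.00 in wt, so that the rise was seen on 1 of 3 probe sets.

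The kinesin-3 motors carry precursors of synaptic vesicles and other membranes. Kif1b rose in wt on 1423994_at (0.27, SE 0.06, adjusted p = 0.0104) and 1451200_at (0.24, SE 0.06, adjusted p = 0.0192), and differed on these by 0.16 (adjusted p = 0.0691) and 0.17 (adjusted p = 0.0578) in SCA3. Kif13b rose 1.42-fold in SCA3 (0.50, SE 0.13, adjusted p = 0.0188) and differed by 0.34 in wt (adjusted p = 0.121). Its call was lost without SCA3 CCI-779 replicates 2 and 5 (0.46, adjusted p = 0.107) and without all 3 arrays apart (adjusted p = 0.0514). Kif1a, whose cargo is synaptic vesicle precursors, differed by 0.34 (SE 0.12, adjusted p = 0.0632) in SCA3 and 0.15 (SE 0.13, adjusted p = 0.467) in wt on its brightest probe set. In SCA3 this was 0.15 without replicates 2 and 5 (adjusted p = 0.455), and passed without wt CCI-779 replicate 1 (0.34, adjusted p = 0.0439). Its other tested probe set, 1421053_at, differed by -0.26 in SCA3 and -0.42 in wt, neither past the threshold. Kif13a differed by 0.56 (SE 0.23, adjusted p = 0.104) in SCA3 and 0.75 (SE 0.24, adjusted p = 0.0505) in wt. Without SCA3 CCI-779 replicates 2 and 5 it differed by 0.28 in SCA3 (adjusted p = 0.524) and passed in wt (adjusted p = 0.0341).

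Kif21b, a kinesin that also restrains microtubule growth, rose 1.36-fold in SCA3 (0.44, SE 0.14, adjusted p = 0.0369) and differed by 0.40 in wt (adjusted p = 0.0759). The SCA3 call was lost without replicates 2 and 5 (0.39, adjusted p = 0.153), without any one of 7 arrays and with the GAPDH difference as a covariate (0.32, adjusted p = 0.104). Its relative Kif21a differed by 0.12 in SCA3 and 0.24 in wt. Kif2a, which takes microtubules apart from their ends and limits axon branching in mice, rose 1.18-fold in wt on 1 of 4 probe sets, 1450053_at (0.24, SE 0.07, adjusted p = 0.0319), a call lost without wt CCI-779 replicate 1 (0.23, adjusted p = 0.0675) and, counting that array, without any one of 8 wt arrays. The other 3 differed by 0.03, 0.04 and -0.43 in wt. In SCA3 1450053_at differed by 0.14, and passed without replicates 2 and 5 (0.24, adjusted p = 0.028). Kif3a and Kif3b form the kinesin-2 motor of cilia and axons. Kif3a rose in SCA3 on 1 of 4 probe sets, 1455652_at (0.24, SE 0.07, adjusted p = 0.0358), and Kif3b fell in wt on 1 of 4, 1420987_at (-0.81, SE 0.24, adjusted p = 0.0381), which was -0.54 (adjusted p = 0.0414) without wt CCI-779 replicate 1. Klc1, a light chain that binds cargo for conventional kinesin, differed by 0.12 (SE 0.05, adjusted p = 0.0977) in SCA3 and 0.10 (SE 0.05, adjusted p = 0.204) in wt on 1417005_at. No call was made for the other tested kinesins Kif16b, Kif17, Kif1c, Kif22, Kif26a, Kif3c and Kif6, or for Klc4.

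Probe sets of 1 gene often disagreed. Of the 27 member genes with several tested probe sets, 20 had both signs in SCA3 and 16 in wt, and 8 in SCA3 and 10 in wt had some probe sets past the threshold and others not. With all arrays no gene was called both ways within a genotype. The widest gaps in both genotypes included Kif5a, Kif1b, Kif5c and Klc1, each with 1 probe set far lower on wt CCI-779 replicate 1. There Kif5c (1450804_at) had 3.26 against a mean of 8.53 on the other 4 arrays of the group, Kif5a (1450249_s_at) 5.47 against 10.39, Kif1b (1451762_a_at) 4.36 against 7.96 and Klc1 (1448541_at) 8.54 against 11.15. The other probe sets of these genes did not show this: Kif5a on 1434670_at had 14.11 against 13.81, and Kif5c on 1455266_at had 13.42 against 13.18. On that array 9 of 105 members (8.57%) lay more than 1 log2 unit below the mean of the rest of their group, against 4.44% of all tested probe sets, and on no other array did any member.

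**Figure D3:**
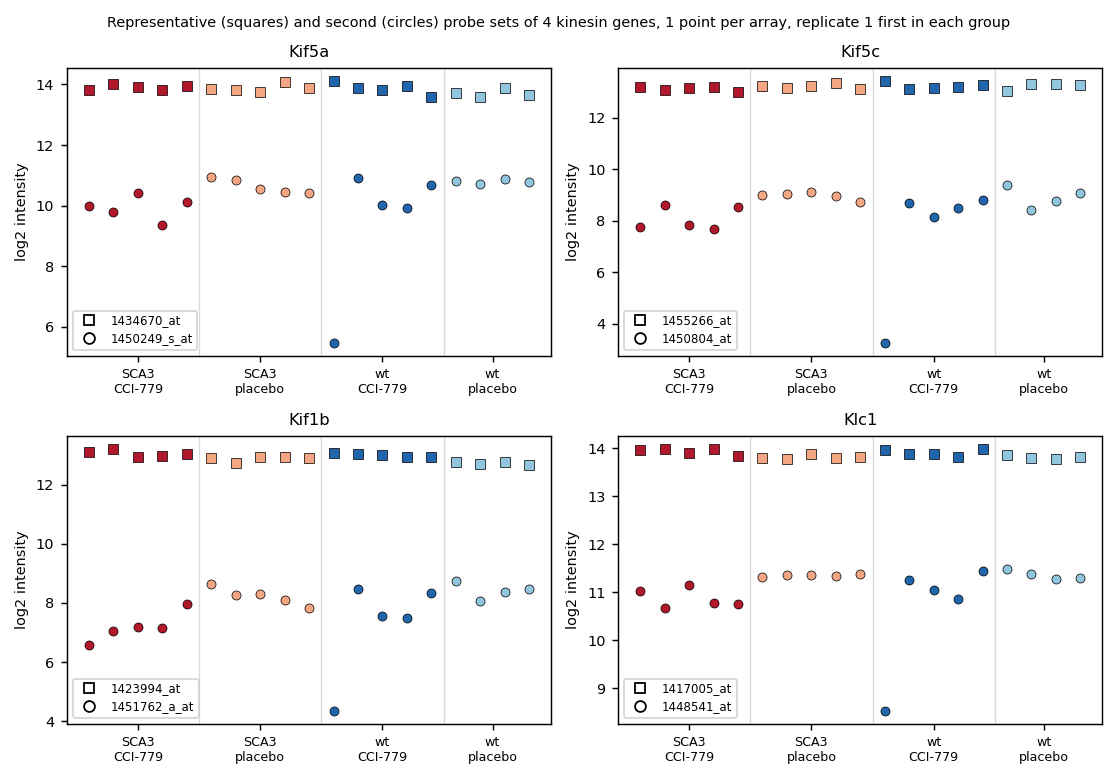
Log2 intensity on all 19 arrays for 2 probe sets each of Kif5a, Kif5c, Kif1b and Klc1 (squares, the probe set with the highest mean; circles, a second one), with groups from left to right SCA3 CCI-779, SCA3 placebo, wt CCI-779 and wt placebo. The circles drop on wt CCI-779 replicate 1 (3.26 for Kif5c), where the squares do not, and on SCA3 CCI-779 arrays most circles lie below those of SCA3 placebo.

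That array also entered the spread used for the SCA3 comparison, in which it takes no direct part. Without it 24 members passed in SCA3, 12 higher and 12 lower (19.8% of all probe sets passed), and all 14 called before were among them. Of the 10 added, 7 were lower, and 6 of these were kinesin or kinesin light chain probe sets: Kif5a on 1450249_s_at (-0.71, adjusted p = 0.0196), Kif5c on 1450804_at (-0.89, 0.0064), Kif1b on 1451762_a_at (-1.04, 0.00675), Klc1 on 1448541_at (-0.48, 0.00422) and Kif3b on 1420987_at (-0.51, 0.0174) and 1450073_at (-0.45, 0.0351). Kif5c was then called both ways in SCA3, at 0.60 on 1422945_a_at and -0.89 on 1450804_at, and so was Kif1b, at 0.17 on 1451200_at (adjusted p = 0.0437) and -1.04 on 1451762_a_at. With Kif5a on 1450249_s_at, SCA3 CCI-779 arrays had 9.98, 9.79, 10.41, 9.35 and 10.13, against 10.95, 10.84, 10.55, 10.46 and 10.43 on SCA3 placebo arrays, all treated below all placebo. Klc1 on 1448541_at had 11.02, 10.68, 11.15, 10.77 and 10.75 on SCA3 CCI-779 arrays, against 11.33, 11.36, 11.36, 11.34 and 11.38 on SCA3 placebo arrays, again with no overlap. The brightest probe sets of the same genes differed by 0.04 (Kif5a), -0.09 (Kif5c), 0.16 (Kif1b) and 0.12 (Klc1) in SCA3, none past the threshold with all arrays. The actin control probe sets differed between 3' and 5' by 0.88 to 1.55 on SCA3 CCI-779 arrays against 1.26 to 1.33 on SCA3 placebo arrays, and those of GAPDH by -0.43 to -0.28 on SCA3 CCI-779 arrays against -0.53 to -0.47 on SCA3 placebo arrays. The part of these measures in the split between probe sets was not tested.

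Without SCA3 CCI-779 replicates 2 and 5, 7 members passed in SCA3, 5 higher and 2 lower, of which 5 were among the 14 (5.88% of all probe sets passed). Without these and wt CCI-779 replicate 1, 11 passed (11.4% of all), with 6 of the 14 among them. In wt 13 members passed without wt CCI-779 replicate 1, 8 higher and 5 lower, including 11 of the 15 (8.37% of all). Without SCA3 CCI-779 replicates 2 and 5, 18 passed in wt, 13 higher and 5 lower, including all 15 (14.2% of all). Without all 3 arrays 18 passed in wt, 11 higher and 7 lower, including 14 of the 15 (11.7% of all).

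SCA3 and wt CCI-779 effects can be set side by side because these 2 comparisons share no array. They do share 1 estimate of the spread. In both the drug coincided with the spike-in level and the GAPDH difference, so their likeness may be in part technical. 6 probe sets passed in both with the same direction, which is 42.9% of the 14 SCA3 calls and 40% of the 15 wt calls; over all tested probe sets 5.9% passed in both, 38.9% of the SCA3 calls and 49.6% of the wt calls. They were Tuba1a and Tuba4a, which fell, and Dync1h1, Dync1li2, Dctn1 (1422521_at) and Tubgcp6, which rose. Of the 14 SCA3 calls 13 held after quantile normalisation and 12 after centring, and of the 15 wt calls 9 and 8. Under both scalings no dynactin probe set rose in wt, so the Dctn1 call there was lost. The gamma-tubulin complex then had 1 probe set higher in wt instead of 2, and dynein 1 in SCA3 instead of 2 after centring. In SCA3 both scalings added falls of 1 gamma-tubulin probe set and 1 of its complex. The log2 differences had the same sign in both genotypes for 84 of 105 members (80%), against 72.6% of all. Across the 105 probe sets, which share arrays and in part genes, Pearson's r between the genotypes was 0.84 and Spearman's rho 0.78, against 0.67 and 0.64 over all tested probe sets. The points with the lowest values in both genotypes were the second probe sets of Kif5a, Kif5c and Kif1b. Their wt differences were -1.39, -1.42 and -1.18, and -0.41, -0.37 and -0.46 without wt CCI-779 replicate 1. The correlation without that array was not examined.

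**Figure D4:**
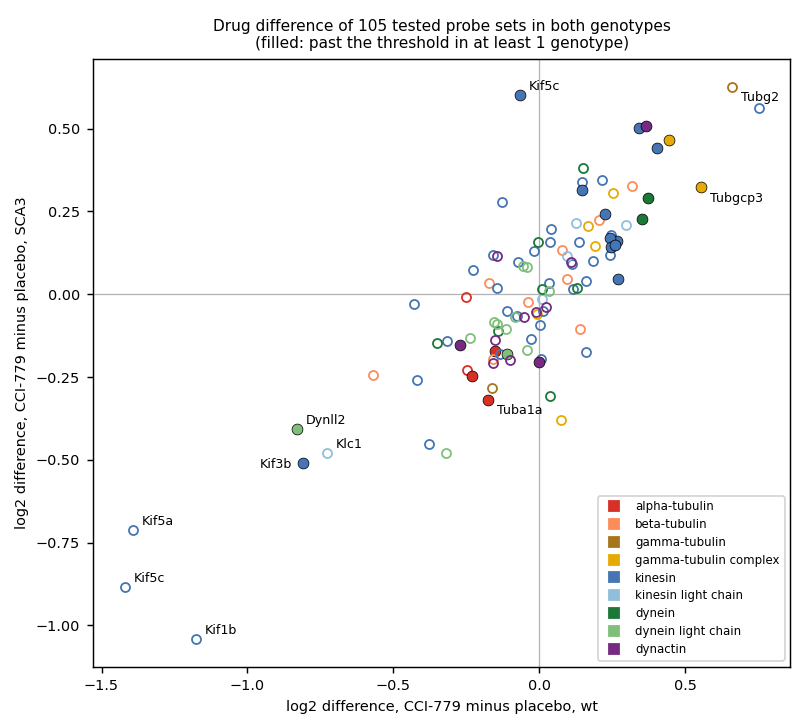
Log2 difference of CCI-779 minus placebo for each of the 105 tested probe sets, in SCA3 (vertical axis) against wt (horizontal axis), coloured by family; filled points passed the threshold in at least 1 genotype. Most points lie along the diagonal, with 84 of 105 of the same sign, and Kif5c (1422945_a_at) stands apart at 0.60 in SCA3 and -0.07 in wt.

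No member differed between genotypes after correction. SCA3 against wt under placebo gave 0 of 105 calls by limma (5 with an unadjusted p under 0.05), where 0.00977% of all probe sets passed and 5.75% had an unadjusted p under 0.05. The arrays of both groups did not overlap for 2 members, both lower in SCA3, against 2.5% of all probe sets (1.29% lower). By gene, the smallest p-values belonged to Kif1b (1423994_at, 0.17, SE 0.06, adjusted p = 0.716), Dync1i2 (-0.18, SE 0.08, adjusted p = 0.813) and Dynlrb1 (0.18, SE 0.08, adjusted p = 0.828). SCA3 against wt under CCI-779 gave 0 calls (13 unadjusted), where 0.00977% of all passed and 15.4% had an unadjusted p under 0.05. Groups did not overlap for 2 members higher and 1 lower in SCA3, against 2.38% of all (0.552% higher and 1.83% lower). Under CCI-779 Tuba1a differed by -0.15 (SE 0.05, adjusted p = 0.184), Kif1a by 0.34 (SE 0.12, adjusted p = 0.206) and Kif16b by -0.36 (SE 0.13, adjusted p = 0.224). Without the 3 arrays that stood apart, 1 member passed there: Dync1li1, at -0.77 (SE 0.10, adjusted p = 0.0347), against -0.41 (adjusted p = 0.224) with all arrays.

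The interaction, which asks whether the drug effect differs between genotypes, gave 0 calls among members (4 unadjusted) and 0% of all probe sets, with 7.68% of all at an unadjusted p under 0.05. By representative probe set, Tubgcp4 had -0.45 (SE 0.19, adjusted p = 0.633), Dctn6 -0.20 (SE 0.09, adjusted p = 0.633) and Tuba1a -0.14 (SE 0.07, adjusted p = 0.66). A call in only 1 genotype, such as those of Kif13b, Kif21b, Dctn4, Dctn6 or Tubgcp3, is thus not shown to be a difference between genotypes.

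The 23 member genes with no tested probe set were mostly kinesins, and they had low values on every array. They comprised 18 kinesins (among them Kif11, Kif15, Kif20a, Kif20b, Kif23 and Kif2c, which act in the spindle or in cytokinesis), and Klc3, Dynlt1f, Tuba3b, Tubb1 (the beta-tubulin of platelets) and Tubb6. Their probe sets reached at most 3.68 on any array. Over all 74 untested member probe sets the means ran from 1.59 to 3.86. Just below the level for testing were Dctn4 on 1450030_at (3.86), Kif23 (3.37) and Kif22 on 1451128_s_at (3.31), and just above it Kif6 (4.16), Dynlrb2 (4.37) and Kif17 (4.63). A level too low for testing does not show that an mRNA is absent.

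Of 90 other microtubule genes (microtubule-associated proteins, end-binding proteins, motor adaptors and tubulin-modifying enzymes) 76 were tested, of which 13 rose and 2 fell in SCA3 and 15 rose and 2 fell in wt, with median log2 differences of 0.04 and 0.13. Over all 10454 tested genes 17.1% passed in SCA3 and 13.1% in wt, with medians of 0.0022 and 0.078. Mapre3, a protein of growing microtubule ends in neurons, rose by 1.42 (SE 0.22, adjusted p = 0.000703) in SCA3 and 1.16 (SE 0.23, adjusted p = 0.00506) in wt. Among the genes with the smallest p-values in SCA3, Map1a, which binds axonal and dendritic microtubules, rose by 1.18, Hap1, the huntingtin-associated adaptor of both motors, by 0.85, Kifc2 and Mapk8ip3 by 0.43 each, and Actr1a, which forms the filament of dynactin, by 0.37. In wt, Trak1, which couples kinesin and dynein to mitochondria, rose by 0.50, Agtpbp1, which trims glutamates from tubulin, by 0.46, Map7, which recruits conventional kinesin, by 0.44 and Map9 by 0.32, while Clasp2, a stabiliser of growing ends, fell by 0.51. All had limma adjusted p-values of 0.00506 or less. Whether these calls hold without the arrays that stood apart, or under another scaling, was not examined. In SCA3 the SD of treated arrays was 0.59 for Mapre3, 0.52 for Map1a and 0.40 for Hap1. For Kifc2, Mapk8ip3 and Actr1a it was 0.09 to 0.15.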

How the data were processed

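Single-colour Affymetrix arrays of 19 mouse brain RNA samples were deposited as 1 table of linear intensity values, which the authors had normalised with GCRMA, per the submitters' processing notes (version not given in the sources used here). The deposited intensities ran from 2.26 to 73595 and were converted to log2 with no pseudocount. Of 45037 probe sets other than 64 controls, 34945 had 1 gene symbol in GEO's platform annotation, 932 several and 9160 none. Probe sets averaging 4 or more (log2 intensity, all arrays) were tested (20473, or 45.5%). One limma 3.58.1 model (R 4.3.3) with 4 group means over all 19 arrays and empirical Bayes gave 5 two-sided contrasts, with Benjamini-Hochberg adjustment over all tested probe sets and a threshold of 0.05 (15 residual and 2.59 prior degrees of freedom). GCRMA usually brings arrays to a shared distribution, which can hide a change shared by most genes. The number of arrays limits the precision. The members, marker lists and gene lists were chosen with earlier results of these data known.

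Named are 36 listed genes whatever their values (33 had a tested probe set), member genes past the threshold on their brightest tested probe set, the 3 next by p where fewer than 3 passed, and up to 6 genes with the widest gaps between probe sets. Other members are named where a count of calls includes them, and were chosen after their values were seen. Replicate numbers were not taken to pair the samples. Of 24 pairs of arrays with the same number, 9 had deviations from their group means that correlated above 0.1 (r from -0.31 to 0.29). Pairs with different numbers were not examined, so these values cannot settle whether the numbers pair the samples. Alternatives covered the filter, the scaling, the prior, array weights, covariates, the choice of probe set and arrays left out. The fit was tested on simulated data. Promoter sequences are those of RefSeq for GRCm38.p6.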

Additional observations from a re-analysis of the deposited data

Results flagged for a closer look

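In 20 of 216 groups examined (54 member probe sets in 4 groups each), 1 array lay far from the rest of its group by Dixon's criterion, which chance alone exceeds in about 1 in 20 groups. The 54 were the named probe sets, picked in part by their calls and by wide gaps between probe sets. Their count can therefore not be judged against that share. 4 of the 5 on wt CCI-779 replicate 1 were low: Klc1 (1448541_at) at 8.54 against 10.86 to 11.44 on the other arrays of the group, Kif5a (1450249_s_at) at 5.47 against 9.92 to 10.92, Kif5c (1450804_at) at 3.26 against 8.16 to 8.80 and Kif1b (1451762_a_at) at 4.36 against 7.49 to 8.47. On the same array Tubgcp4 was high, at 8.06 against 7.69 to 7.77. That array also had the highest 3' minus 5' differences of the GAPDH and actin control probe sets (0.28 and 2.55), and the part of this in the low values was not tested.

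In SCA3 CCI-779 brains the arrays apart were Tubb5 on replicate 4 at 12.14, Dynll1 on replicate 5 at 13.97, Kif5b (1418429_at) on replicate 5 at 12.71, Tubgcp3 on replicate 4 at 8.04 and Kif13b on replicate 3 at 7.55. In SCA3 placebo brains they were Dctn6 on replicate 4 at 12.26, Kif3b on replicate 3 at 6.69, Kif1b (1423994_at) on replicate 2 at 12.75, Dctn2 on replicate 5 at 11.06 and Klc1 (1428881_at) on replicate 2 at 6.12. In wt CCI-779 brains they were Dctn2 on replicate 4 at 11.08, Dync1li2 on replicate 5 at 11.13 and Dctn1 (1435414_s_at) on replicate 3 at 11.66. In wt placebo brains they were Tubg1 on replicate 3 at 8.31 and Tubgcp4 on replicate 1 at 7.78. The other SCA3 placebo arrays of Klc1 (1428881_at) had 7.06 to 7.17. None of these 54 probe sets had all arrays of the genotypes moving in opposite directions under the drug, and the other members were not examined for this.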

How the results depend on the processing

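All 14 SCA3 calls and all 15 wt calls kept their direction under every alternative run by probe set. Their number did not hold (14 in SCA3 and 15 in wt with all arrays). Direction was not followed in the runs by gene. There a called probe set can give way to another: in SCA3 the brightest probe sets of Dctn1 and Kif5c differed by -0.20 and -0.09, against rises on the called ones. When the model held the level of the hybridisation spike-ins, 0 passed in SCA3 and 0 in wt by limma (15 and 9 at an unadjusted p under 0.05), where 0.00488% and 0% of all probe sets passed. With the GAPDH difference as a covariate 7 passed in wt (3.76% of all probe sets), with array weights 24 (16.7%), and with only the arrays compared 9 (6.66%). By the mean over each gene's tested probe sets 6 genes passed in SCA3 and 6 in wt (14.7% and 10.8% of all genes), and at an adjusted p under 0.01, 5 and 3 probe sets (5.4% and 3.38% of all). Without SCA3 CCI-779 replicates 2 and 5, 7 passed in SCA3 (5.88% of all), and without all 3 arrays apart 1 passed between genotypes under CCI-779. Leaving out 1 array at a time gave 7 to 24 calls in SCA3 (7 without SCA3 CCI-779 replicate 2, 24 without wt CCI-779 replicate 1) and 6 to 16 in wt (8 and 7 without wt CCI-779 replicates 3 and 4, 6, 7 and 6 without wt placebo replicates 2, 3 and 4), and 0 in the genotype and interaction comparisons. With the replicate number as a block, which was not taken to pair the samples, 20 passed in SCA3 and 10 in wt (18.3% and 6.76% of all). 7 SCA3 calls (Dync1h1, Tuba1a, Tuba4a on 1417373_a_at, Kif13b, Kif5c, Dctn1 and Kif5b) and 4 wt calls (Kif1b on 1423994_at, Dync1h1, Dync1li2 and Tubgcp3) held without each single array. The causes were not tested.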

Other observations

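Among probe sets assigned to several genes, 11 matched the names of these families and were not counted as members. The Dynlt1 genes, dynein light chains, shared a probe set (1428116_a_at) that differed under CCI-779 by -0.10 in SCA3 and -0.05 in wt (limma adjusted p = 0.579 and 0.821). A probe set of Tuba3a and Tuba3b (1416311_s_at) differed by 0.02 and -0.02 (adjusted p = 0.885 and 0.862). One assigned to Tubb2b and a Tubb2a pseudogene differed by -0.56 in SCA3 and -0.98 in wt without passing (adjusted p = 0.411 and 0.169), where Tubb2b's own probe set differed by -0.11 and 0.14.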
